A study of Homo sapiens with 2 samples.

Results

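The genes described here are 10 transcription factors and targets of the integrated stress response, among the 20263 genes of each deposited table: ATF4, ATF3, DDIT3, DDIT4, TRIB3, ASNS, CHAC1, XBP1, STC2 and VLDLR. They are the rows whose gene name is on a list of ATF4 pathway factors and targets, and all 10 names have a row in both tables. RNA sequencing was done on Cal-27, an established human line of oral squamous cell carcinoma, with tongue as its source tissue. The library labelled HIPK2 shRNA came from cells stably transduced with the vector GV-248-HIPK2-sh, and the scramble library from cells with the control vector sh-scramble; both were grown in regular medium with no stress agent named. Each group held 1 library, and the labels do not say whether a culture was 1 clone or a pool. The differences below compare these libraries, not the conditions, and carry no p-value. Brackets hold 95% exact intervals, for counting error only.

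In the integrated stress response, kinases that sense endoplasmic reticulum (ER) stress, amino acid shortage, haem shortage or double-stranded RNA phosphorylate the translation factor eIF2. General translation then slows, while the mRNA of ATF4 is translated more, so much of the control of ATF4 lies in translation and is not seen in RNA levels. ATF4 protein binds composite C/EBP-ATF elements and induces genes of amino acid supply, redox balance and feedback, and under long stress the pro-death factor CHOP, the product of DDIT3. In a parallel branch of the unfolded protein response, the enzyme IRE1 splices the mRNA of XBP1. Gene-level counts do not separate the spliced from the unspliced form.

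Some promoters of these genes carry the letters that such factors read, and the longer matches are shown for the genes that hold them. DDIT3, DDIT4, TRIB3, STC2 and VLDLR held none of the letters within the windows searched, which are defined next. Bases outside those windows were not searched, so elements there would be missed. RefSeq promoter windows on GRCh38.p14, running from 250 bases before to 50 bases after an annotated start, were found for all 10 genes and searched on both strands. The composite element core TGATGNAA was present at 3 of the 10 genes and in 4.46% of the 27305 genes with a window. The ER stress element (ERSE), CCAAT and CCACG separated by 9 bases, was present at 1 of the 10 genes, XBP1, and in 0.0916% of all genes with a window. The matches are printed 5′ to 3′ along the gene's strand, with the matching letters in capitals:
ASNS, minus strand, chr7:97872458-97872487: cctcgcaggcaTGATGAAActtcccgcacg
CHAC1, plus strand, chr15:40953251-40953280: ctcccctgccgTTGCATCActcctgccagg
ATF3, plus strand, chr1:212565205-212565234: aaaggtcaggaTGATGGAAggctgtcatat
XBP1, minus strand, chr22:28800598-28800626: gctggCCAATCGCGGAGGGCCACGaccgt

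In ASNS the match began 68 bases before a RefSeq start and lay in an exon of a longer GENCODE 29 transcript. The CHAC1 match, read on the other strand, began 209 bases before the start and also lay in an annotated exon. At ATF3 and XBP1 the matches began 191 and 52 bases before a start and lay upstream of the annotated gene. The palindromic cAMP response element TGACGTCA was found at 0 of the 10 genes and in 2.25% of genes with a window. Its shorter core TGACG, which also lies within that element, was found at 3 of the 10 genes (ASNS, ATF4 and XBP1) and in 28.4% of genes with a window. These letters are a description of the windows, not of bound sites.

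The totals were 26450251 counts in the library labelled HIPK2 shRNA and 28064923 counts in the scramble library. HIPK2 itself had 218 counts in the library labelled HIPK2 shRNA and 110 counts in the scramble library, while its deposited TPM was 0.873 and 1.63, so counts and TPM go in opposite directions and the label was not borne out by counts. The transcript length implied for HIPK2 by count and FPKM was 16481 bases in the library labelled HIPK2 shRNA and 4120 bases in the scramble library, a larger shift than for any of the 10 genes. The longest HIPK2 transcript in GENCODE 29 has 15049 bases, so an implied length need not be that of an annotated transcript. All 8 squamous epithelial markers examined were expressed, summing to 3977 CPM in the library labelled HIPK2 shRNA and 4636 CPM in the scramble library. In the library labelled HIPK2 shRNA 7 of these 8 markers were lower in CPM, with a median log2 ratio of -0.33 on the scale defined below. Of the 8, 2 were past 2-fold lower, beside 2.87% of all expressed genes. In TPM the median was -0.24, KRT5 was higher at 0.12, and CDH1, at -0.80, was not past 2-fold. KRT14 had 44 counts in the library labelled HIPK2 shRNA and 318 counts in the scramble library, and CDH1 had 2361 and 5049 counts in that order. Among markers of other cell types, the 6 fibroblast genes summed to 21.5 and 18.2 CPM and the 5 leukocyte genes, of which CD68 gave nearly all, to 20.6 and 23.3 CPM, in that library order. The 4 endothelial genes summed to 28.5 CPM in the library labelled HIPK2 shRNA and 56.1 CPM in the scramble library, of which CDH5 gave 27.3 and 55.2 CPM. DCN, PTPRC, CD3E, PECAM1 and KDR had 0 counts in both libraries, which allows up to 0.111 CPM in the library labelled HIPK2 shRNA and 0.109 CPM in the scramble library. The part of these differences in the results below was not tested.

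Of the 10 stress response genes, 8 were lower and 2 higher in the library labelled HIPK2 shRNA in CPM (counts scaled to library size with TMM factors), and 7 were lower and 3 higher in TPM, where DDIT4 changed side. The secreted glycoprotein gene STC2 and the lipoprotein receptor gene VLDLR were the lowest, and the factors ATF3 and XBP1 were the higher ones. Genes were called by the log2 ratio of CPM + 1, which understates differences of low genes, and past 2-fold means 1 or more in either direction on that scale. By this rule of size 2 of the 10 genes were lower and 0 were higher, against 2.87% lower and 3.26% higher among the 11813 genes with at least 1 CPM in a library. At 4-fold 0 of the 10 were called, against 0.406% lower and 0.525% higher. By TPM + 1, 1 of the 9 members with at least 1 TPM in a library was past 2-fold lower, STC2, and 0 were higher, against 2.54% and 3.01% of all genes at that level. At 1.5-fold 3 of the 10 were lower, with TRIB3 added, and 1 was higher, ATF3, against 9.96% and 10.6% of all expressed genes. The median log2 ratio of the 10 genes was -0.49, and that of all expressed genes was 0.00. In these bulk libraries fewer cells that express a gene and less RNA per cell cannot be told apart.

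**Figure D1:**
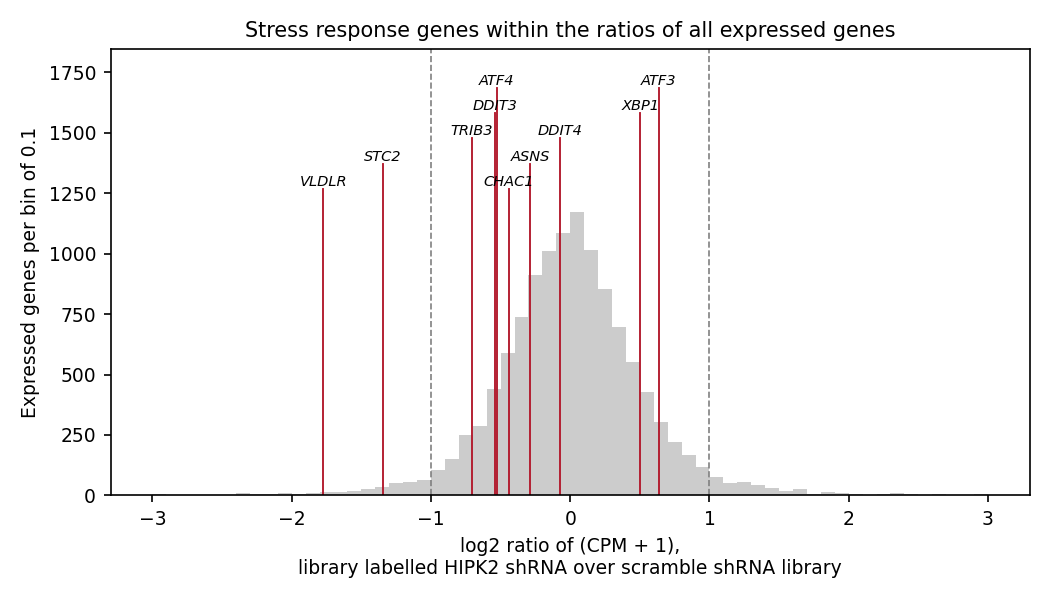
Histogram of the log2 ratio of (CPM + 1), library labelled HIPK2 shRNA over scramble library, for expressed genes (bins of 0.1; 8 genes below -3 and 14 above 3 are outside the axis), with a red line for each of the 10 stress response genes and dashed lines at 2-fold. VLDLR and STC2 lie beyond the lower dashed line, and ATF3 and XBP1 on the higher side within the dashed lines.

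Levels per transcript length, as the authors' TPM, spanned a wide range among the 10 genes. ATF4 had 313.9 TPM in the library labelled HIPK2 shRNA and 361.0 TPM in the scramble library, and was the most abundant of the 10 in both. DDIT4 came next with 255.5 and 250.1 TPM in the same order of libraries. In the library labelled HIPK2 shRNA there followed XBP1 (75.0 TPM), ASNS (68.9 TPM), TRIB3 (65.6 TPM), DDIT3 (21.3 TPM) and STC2 (16.9 TPM). In the scramble library the order was TRIB3 (99.7 TPM), ASNS (77.8 TPM), XBP1 (50.8 TPM), STC2 (38.8 TPM) and DDIT3 (30.2 TPM). XBP1 and TRIB3 thus exchanged places, as did DDIT3 and STC2, while CHAC1, ATF3 and VLDLR closed the order in both libraries. With 1 library a group, no spread shows which neighbours in these orders differ; XBP1, ASNS and TRIB3 lay within 10 TPM of each other in the library labelled HIPK2 shRNA.

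**Figure D2:**
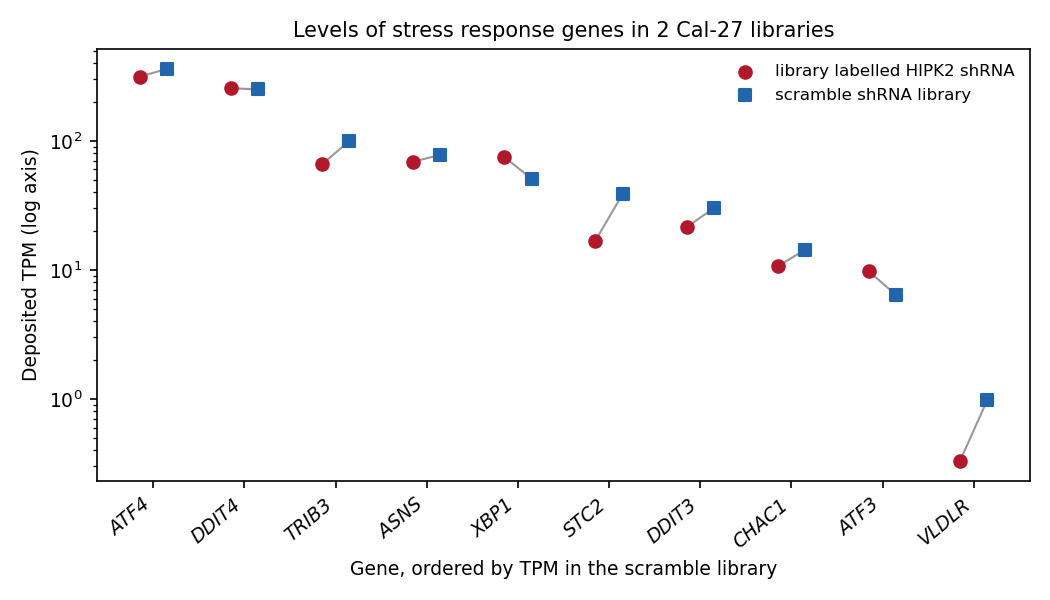
Deposited TPM of the 10 genes on a log axis, with 1 point per library (red circles, library labelled HIPK2 shRNA; blue squares, scramble library), no replicates and no error bars. ATF4 and DDIT4 lie above 250 TPM in both libraries and VLDLR below 1 TPM in both.

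Among the transcription factors, ATF4 and DDIT3 were lower and ATF3 and XBP1 higher in the library labelled HIPK2 shRNA. ATF4 (ENSG00000128272, chromosome 22, 39519695 to 39522685, plus strand, GRCh38), the central activator of the response, had 8124 counts in the library labelled HIPK2 shRNA and 11896 counts in the scramble library. Its CPM was 300.2 and 433.6, a ratio of 0.692 (0.673 to 0.712). In TPM the ratio of ATF4 was nearer to 1, at 0.869. The transcript length that count and FPKM imply for ATF4 was 0.851 times as long in the library labelled HIPK2 shRNA as in the scramble library, so the size of this difference depends on the unit and its direction does not.

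DDIT3 (ENSG00000175197, chromosome 12, 57516588 to 57520517, minus strand), which encodes CHOP, a factor that promotes cell death under long stress, had 351 counts in the library labelled HIPK2 shRNA and 529 counts in the scramble library. The CPM ratio was 0.673 (0.586 to 0.771) and the TPM ratio 0.706. DDIT3 shares 27.2% of its exon bases with MARS and 4.44% with MBD6, both on the opposite strand, and MARS had 5873 and 5100 counts in that library order. It also shares 8.03% with AC022506.1 on the same strand, a gene without a row in the deposited tables. No source used here says whether counting used strand, so reads of DDIT3 and MARS may have been exchanged and the DDIT3 value is uncertain.

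ATF3 (ENSG00000162772, chromosome 1, 212565334 to 212620777, plus strand), an early induced factor that ATF4 activates and that also represses genes, had 340 counts in the library labelled HIPK2 shRNA and 212 counts in the scramble library. It was the highest of the 10 ratios, at 1.63 (1.37 to 1.94) in CPM and 1.53 in TPM. ATF3 is also induced by stimuli outside this pathway, among them mitogens and DNA damage, and the present data do not separate them. XBP1 (ENSG00000100219, chromosome 22, 28794555 to 28800597, minus strand), the factor of the IRE1 branch, had 2186 counts in the library labelled HIPK2 shRNA and 1556 counts in the scramble library, a CPM ratio of 1.42 (1.33 to 1.52). Its TPM ratio was 1.48, so both genes were higher in both units.

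TRIB3 and DDIT4, which act on signalling, differed in size. TRIB3 (ENSG00000101255, chromosome 20, 362835 to 397559, plus strand), a pseudokinase that binds ATF4 and restrains it, had 2914 counts in the library labelled HIPK2 shRNA and 4837 counts in the scramble library. It was 1.64-fold lower (1.56 to 1.71) in CPM and 1.52-fold lower in TPM. DDIT4 (ENSG00000168209, chromosome 10, 72273920 to 72276036, plus strand), known as REDD1, is an inhibitor of mTORC1. It had 8062 counts in the library labelled HIPK2 shRNA and 8579 counts in the scramble library, a CPM ratio of 0.953 (0.924 to 0.982). The TPM ratio of DDIT4 was 1.02 and upper-quartile scaling also turned its sign, so no direction can be given. The median log2 ratio of all expressed genes moved too. It was 0.00 with TMM factors, 0.065 with upper-quartile scaling and 0.071 in TPM. The log2 ratio of DDIT4 in those settings, -0.070, 0.0014 and 0.030, lay below that median each time. DDIT4 shares 41.2% of its exon bases with the antisense gene DDIT4-AS1.

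The metabolic targets ASNS and CHAC1 were both lower, by less than 1.5-fold. ASNS (ENSG00000070669, chromosome 7, 97852118 to 97872542, minus strand), the asparagine synthetase, had 1976 counts in the library labelled HIPK2 shRNA and 2450 counts in the scramble library, a CPM ratio of 0.818 (0.770 to 0.868) and a TPM ratio of 0.886. CHAC1 (ENSG00000128965, chromosome 15, 40952962 to 40956519, plus strand), which degrades glutathione, had 298 counts in the library labelled HIPK2 shRNA and 420 counts in the scramble library. Its ratio was 0.719 (0.618 to 0.836) in CPM and 0.744 in TPM. Both genes hold the composite element letters shown above, as does ATF3, which was higher. An annotated transcript, AC079781.5, covers 44.6% of the ASNS exon bases on the same strand. GENCODE 29 names 4 pseudogenes of ATF4, 4 of ASNS and 1 of XBP1, which are not analysed here, and reads shared with them make those counts less certain.

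Lowest among the 10 were a secreted and a surface protein. STC2 (ENSG00000113739, chromosome 5, 173314713 to 173329503, minus strand) encodes stanniocalcin-2, a secreted glycoprotein induced by ER stress and hypoxia. It had 1553 counts in the library labelled HIPK2 shRNA and 4038 counts in the scramble library, which is 57.4 and 147.2 CPM. In TPM it was 2.30-fold lower, so it was past 2-fold in both units, and it took rank 155 from the lowest log2 ratio among the 11813 expressed genes. VLDLR (ENSG00000147852, chromosome 9, 2621834 to 2660053, plus strand) encodes the very low density lipoprotein receptor, a known target of ATF4 and of hypoxia signalling. It had 32 counts in the library labelled HIPK2 shRNA and 177 counts in the scramble library, that is 1.18 CPM (0.809 to 1.67) and 6.45 CPM (5.54 to 7.48). VLDLR was 5.46-fold lower (3.73 to 8.22) in CPM, at rank 68 from the lowest, and 2.97-fold lower in TPM, where it lay under 1 TPM in both libraries. Its implied transcript length was 0.582 times as long in the library labelled HIPK2 shRNA, the largest such shift of the 10 genes.

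**Figure D3:**
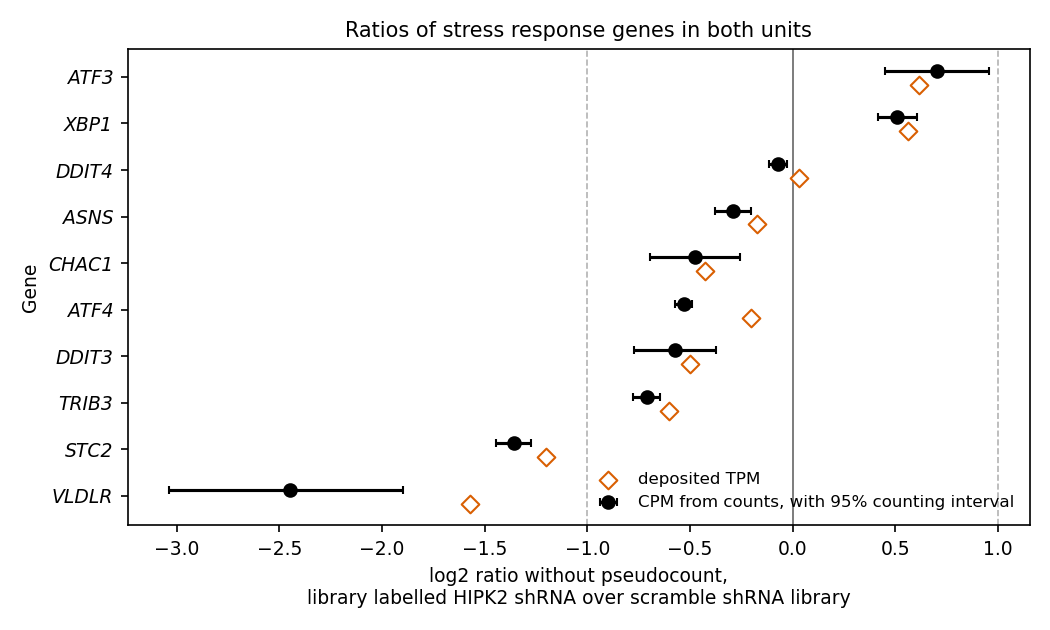
The log2 ratio without pseudocount of the library labelled HIPK2 shRNA over the scramble library for each gene, from CPM (black points, with 95% counting intervals) and from deposited TPM (open diamonds, no interval); dashed lines mark 2-fold. STC2 and VLDLR lie past 2-fold lower in both units, DDIT4 sits near 0, and ATF4 and VLDLR show the widest gaps between the units.

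CPM and TPM ratios lay closer together for the other 8 genes than for ATF4 and VLDLR. For genes with 1 annotated transcript and at least 100 counts in both libraries, the implied lengths differed by less than 5% between libraries in all 431 genes. Among 8670 genes with more transcripts, 23.4% had implied lengths that differed by more than 10%. All 10 stress response genes have more than 1 annotated transcript, and ATF4, ATF3 and VLDLR were the 3 whose implied lengths differed by more than 10%. Whether this comes from transcript usage or from read assignment was not tested.

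In the wider pathway the share of genes past 2-fold lower was near that of all expressed genes. Over 8 lists of related genes, without the 10 genes above, 96 of 99 genes were expressed, of which 56 were lower and 40 higher in the library labelled HIPK2 shRNA. Past 2-fold were 3 lower genes, FOSL1, MTHFD2 and VEGFA, and 0 higher genes, beside 2.87% and 3.26% of all expressed genes; in TPM FOSL1 had a log2 ratio of -0.96 and was not past 2-fold. At 1.5-fold 13 of the 96 genes were lower and 4 higher, beside 9.96% and 10.6% of all expressed genes. The median log2 ratio of these 96 genes was -0.10.

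Upstream of ATF4, the eIF2 kinases had log2 ratios from 0.00 to 0.26 in CPM, with other values in TPM, while the eIF2 subunit and phosphatase genes were lower in both units. EIF2AK1 (the haem sensor HRI), EIF2AK2 (PKR), EIF2AK3 (PERK) and EIF2AK4 (GCN2) had log2 ratios of 0.00, 0.15, 0.26 and 0.12. The counting intervals of these CPM ratios all included 1. EIF2AK3 had only 112 counts in the library labelled HIPK2 shRNA and 90 counts in the scramble library, a ratio of 1.26 (0.947 to 1.68). In TPM EIF2AK2 was at -0.10, EIF2AK3 at 0.23 and EIF2AK4 at 0.60. EIF2S1, the subunit of eIF2 that these kinases phosphorylate, had 1593 counts in the library labelled HIPK2 shRNA and 3042 counts in the scramble library, 1.88-fold lower (1.77 to 2.0). PPP1R15A, or GADD34, the induced phosphatase subunit that reverses this phosphorylation and is itself a target of the pathway, had 2759 and 4962 counts in that order, 1.77-fold lower (1.69 to 1.86). The exchange factor subunits EIF2B3 and EIF2B2 had log2 ratios of -0.49 and -0.41. Of the 12 genes 8 were lower, with a median log2 ratio of -0.29 and 0 past 2-fold.

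In serine, one-carbon and other amino acid synthesis, 10 of 12 genes were lower in CPM, ASNS among them, with a median log2 ratio of -0.19 that was 0.01 in TPM. Among all genes with at least 1 TPM in a library the median in TPM was 0.07. MTHFD2, the mitochondrial one-carbon enzyme, had 1222 counts in the library labelled HIPK2 shRNA and 2897 counts in the scramble library, a ratio of 0.428 (0.40 to 0.457), but it shares 27.2% of its exon bases with SLC4A5 on the opposite strand. PSAT1, of serine synthesis, was 1.79-fold lower (1.72 to 1.86) in CPM with a TPM log2 ratio of -0.40. CTH, which makes cysteine, had 113 and 230 counts, and PCK2, the mitochondrial PEP carboxykinase, a log2 ratio of -0.37. SHMT2 and ALDH18A1 were the 2 higher genes, at 0.35 and 0.18.

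Amino acid transporters divided. SLC7A5, the large neutral amino acid transporter LAT1 and a known ATF4 target, had 161090 counts in the library labelled HIPK2 shRNA and 94707 counts in the scramble library, 1.72 times higher (1.71 to 1.74). SLC38A2, an ATF4 target that imports small neutral amino acids, was 1.67 times higher (1.57 to 1.78). SLC1A4 and the cationic transporter SLC7A1 went the other way, at log2 ratios of -0.77 and -0.42. Of 9 expressed transporters 5 were higher, with a median log2 ratio of 0.01. The cytosolic tRNA synthetases had 6 genes higher and 6 lower with a median of -0.01 in CPM and 0.11 in TPM, beside 0.07 for all genes in TPM. In CPM they ran from WARS at -0.79 and SARS at -0.50 through GARS at -0.37 to EPRS at 0.60.

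Other factors and targets of the response were more often lower, 10 of 14 expressed genes with a median log2 ratio of -0.24. VEGFA, the angiogenic factor, which hypoxia also induces, had 431 counts in the library labelled HIPK2 shRNA and 1887 counts in the scramble library. JDP2, a bZIP repressor related to ATF3, had 150 and 319 counts in that order, a CPM ratio of 0.477 (0.390 to 0.581), but lay just inside the rule of size with a log2 ratio of -0.95. GDF15, a stress-induced secreted hormone, was 1.76-fold lower (1.65 to 1.88). CEBPA, a C/EBP family factor, was 1.98 times higher (1.72 to 2.27), and FGF21 had 0 counts in both libraries.

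By list median the ER branches differed little, though single genes such as SEC61A1 differed more. Among 12 genes of the IRE1 arm and targets of XBP1, 8 were lower, with a median log2 ratio of -0.14, while XBP1 mRNA was higher. SEC61A1, the translocon channel, had 9359 counts in the library labelled HIPK2 shRNA and 18063 counts in the scramble library, 1.90-fold lower (1.86 to 1.95). The other named genes of this list were PDIA6 at -0.29, DNAJB9 at -0.24 and SSR1 at -0.23; the counting interval of the DNAJB9 ratio, 0.802 (0.574 to 1.11), included 1. Of 14 genes of the ATF6 arm and ER chaperones, 10 were higher with a median log2 ratio of 0.06 and 0 past 1.5-fold. MBTPS2, a protease that releases ATF6, was at 0.48, CRELD2 at 0.46 and HSP90B1 at 0.39, while HYOU1 was at -0.37 in CPM and 0.13 in TPM. HSPA5, the chaperone BiP and a standard ER stress readout, had a log2 ratio of -0.08 in CPM and 0.02 in TPM. Several of these genes share exon bases with a neighbour, which makes their counts uncertain: PDIA6 shares 25.2% with ATP6V1C2, CEBPA 25.0% with an antisense gene, EIF2B2 20.2% with a transcript on the opposite strand, MBTPS2 12.2% with YY2 and EIF2B3 10.2% with a pseudogene.

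**Figure D4:**
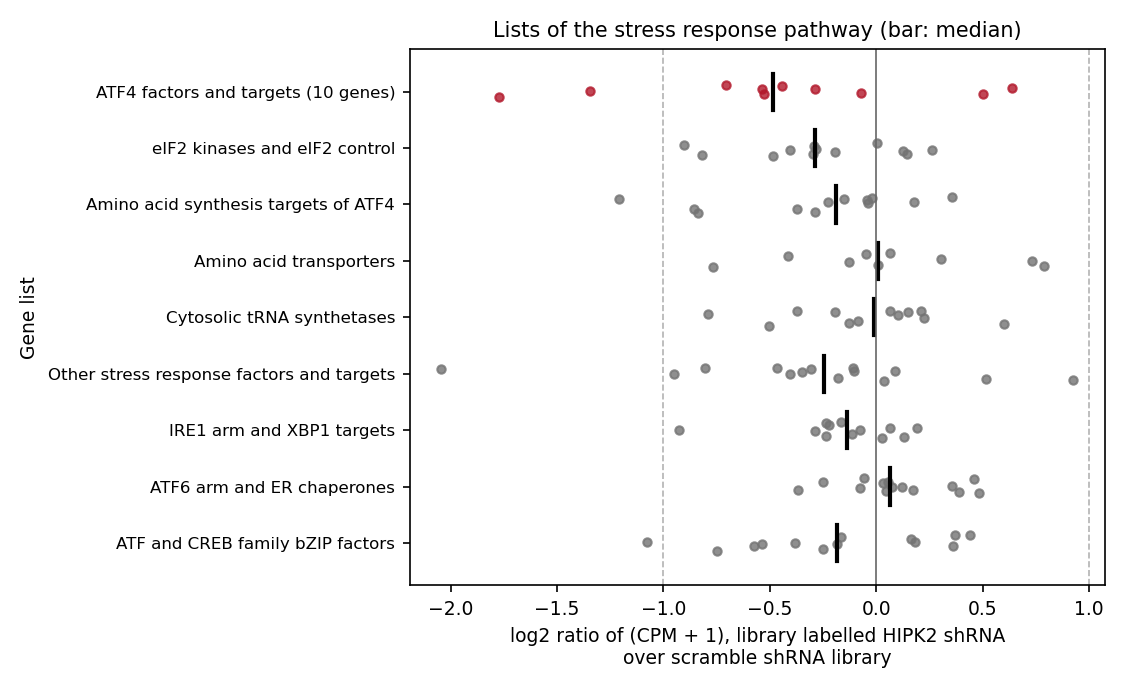
The log2 ratio of (CPM + 1), library labelled HIPK2 shRNA over scramble library, for each expressed gene (points) of the 10 stress response genes (red) and the 8 related lists (grey), with black bars at list medians and dashed lines at 2-fold; ASNS and ATF6 appear in 2 rows. The medians run from -0.49 for the 10 genes to 0.06 for the ATF6 arm.

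Of 13 expressed ATF and CREB family and related bZIP factors, 8 were lower, with a median log2 ratio of -0.18. FOSL1, an AP-1 subunit, was 2.12-fold lower (2.05 to 2.18), BATF3 was at -0.75, JUN at -0.58 and CREB3L1 at -0.54. CREB3L1 had only 14 counts in the library labelled HIPK2 shRNA and 33 counts in the scramble library. It reached 1 CPM only in the scramble library, and its CPM ratio, 0.430 (0.213 to 0.826), is imprecise. Among paralogs of the 10 genes, LRP8 and TRIB2 differed less in CPM than VLDLR and TRIB3. JDP2, at -0.95, differed more than its relative ATF3, at 0.64, and in the other direction. The receptor LRP8, a relative of VLDLR, was at -0.47, and TRIB2 was at -0.07 in CPM and 0.20 in TPM. CHAC2, the relative of CHAC1, was at -0.35. Its CPM ratio without pseudocount, 0.731 (0.541 to 0.983), was close to that of CHAC1, 0.719 (0.618 to 0.836). DDIT4L had 0 counts in both libraries.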

How the data were processed

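FastQC and TopHat2 2.1.1 were used with the build GRCh38, per the submitters' processing notes. The sources used here do not give the counting tool, its annotation or its use of strand. Per the file headers, the authors deposited for each gene a count (whole numbers, not normalized), a TPM and an FPKM. The deposited FPKM, a constant multiple of the TPM within a library, was used only for the transcript length it implies. Counts were turned into CPM with TMM factors (edgeR 4.0.16; 1.02 for the library labelled HIPK2 shRNA and 0.977 for the scramble library). With 1 library per group no edgeR test was run. Ratios without pseudocount carry exact conditional (Clopper-Pearson) intervals and levels exact Poisson intervals (scipy 1.17.1), which cover counting error only, since PCR copies cannot be told from separate molecules. Where a gene had 0 counts, the limit given is that of 3 counts. One count is 0.037 CPM in the library labelled HIPK2 shRNA and 0.0365 CPM in the scramble library. Exon overlaps come from GENCODE 29, which matched 20224 of the 20263 gene IDs. The genes named are the 10 members, HIPK2, the up to 4 expressed genes per list that differed most on the log2 scale (none from chromosome 8, and some not reported here), the eIF2 kinases, and a few others named after their values were seen (SHMT2, ALDH18A1, HSPA5, FGF21, TRIB2, DDIT4L and the marker genes). Members and lists were chosen with earlier results of these data known. Alternatives were other scalings (DESeq2 1.42.0 size factors among them), the deposited TPM, pseudocounts, filters and fold limits.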

Additional observations from a re-analysis of the deposited data

How the results depend on the processing

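No paired analysis was possible because there is 1 library per group, and no replicate could be left out. The count of 2 genes past 2-fold lower among the 10 became 1 in TPM (also with a TPM pseudocount of 0.1, chosen after seeing the data), 1 with 5 CPM as the pseudocount and 1 when 10 CPM was required, in each case without VLDLR, and 0 at 4-fold. VLDLR fell below the filters on level in TPM and at 10 CPM, and with a pseudocount of 5 its log2 ratio was -0.89. The count of 0 higher became 1 at 1.5-fold. Of 87 alternative log2 ratios of the 10 genes, 71 moved from the main value by no more than the distance from the ratio without pseudocount to its counting bounds (log2 scale), 13 moved further without a change of sign and 3 changed sign, all of DDIT4 (0.0014 with upper-quartile scaling, 0.030 in TPM and 0.031 in TPM with the lower pseudocount). ATF4 ranged from -0.54 to -0.20, and STC2 from -1.36 to -1.16. The log2 ratio of HIPK2, 0.85, was -0.49 in TPM. The median of the 10 genes was -0.30 in TPM over all of them and -0.20 without VLDLR. That of amino acid synthesis turned to 0.014 in TPM, where the median of all expressed genes was 0.071. The 385 higher and 339 lower genes among all expressed genes numbered 676 and 515 at a pseudocount of 0.1 CPM, 124 and 161 at 5 CPM, 159 and 217 when 10 CPM was required, 1254 and 1176 at 1.5-fold, and 62 and 48 at 4-fold. These counts of all genes change by definition, since a stricter fold limit or filter calls fewer genes and a larger pseudocount shrinks the ratios of low genes. For the other shifts in this section the cause was not tested. The least precise value is that of VLDLR, whose 32 counts in the library labelled HIPK2 shRNA give a wide interval.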
